A study of Mus musculus with 8 samples.

Results

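PU.1 binding sites were described at 9 genes for transcription factors of the erythroid and megakaryocytic lineages: Gata1, Gata2, Tal1, Lyl1, Lmo2, Zfpm1, Klf1, Nfe2 and Gfi1b. They were chosen by name from textbook roles, with earlier results of these data known. They made up 9 of the 21887 protein-coding genes of the annotation used. A gene was given every called site in its body or within 10 kb of either end. PU.1 had been mapped with ChIP-seq, which sequences the DNA that an antibody pulls down, in AML246, a mouse acute myeloid leukaemia line grown with interleukin-3, in which doxycycline (Dox) raises PU.1 and its withdrawal lowers PU.1 again, as the series title frames the course. Dox at 0.1 ug/mL was given from the start of a course of 24 days and taken away on day 12. Each time point was 1 library with no replicate, so that no difference between time points could be tested. The genotype of the cells, the Dox-responsive allele and any control immunoprecipitation are not stated in the labels used here.

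The 4 libraries titled as restoration were untreated cells (Day 0) and cells with 4, 8 and 12 days of Dox. The other 3 were titled as knockdown, and their titles and treatment labels disagreed. The library titled Day 12- 4 carried the treatment label of 12 days of Dox and was sorted for Cd11b-high viable cells, Cd11b being a surface marker of myeloid maturation. Day 12- 8 carried the label of 4 days without Dox after its withdrawal, and Day 12- 12 that of 8 such days. All libraries except Day 12- 4 were total viable cells. These 3 are called by their titles, and results that rest on them are also given for the restoration libraries. An eighth sample, with a label of 12 days after withdrawal and no time point in its title, was not analysed here. Summit lists hold no expression values, so the identity of the cells was not checked against marker genes.

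PU.1, encoded by Spi1, is an ETS-family factor that drives myeloid differentiation, and in progenitors it and GATA-1 bind each other and oppose each other's target genes. GATA-1 and its relative GATA-2 work in complexes with TAL1 or LYL1 and LMO2, and with the cofactor FOG-1 (Zfpm1). KLF1, NF-E2 (Nfe2) and GFI1B act with them in red cell and platelet precursors. Several of these genes, such as Gata2 and Lyl1, are also used in early myeloid and stem cells.

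The deposited lists differed in length, from 8043 sites at Day 0 and 9868 in Day 12- 4 to 86271 at Day 12 and 148415 in Day 12- 12, with 57424 at Day 4, 33962 at Day 8 and 21377 in Day 12- 8. Read depth was unknown. Each site carried the authors' score, read as the −log10 of a q-value, with a median between 6.34 in Day 12- 12 and 14.1 at Day 8. A score is described by its place within its own list, counted from the highest score, where tied scores share the best place. Thus "top 1%" means a place within the first 1% of that list. Scores of different lists are set side by side without a statement of change. A missing call means that no site passed the authors' threshold, not that PU.1 was absent.

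Promoter sequences are shown for 4 of the 7 genes with a listed promoter, which Lmo2 and Nfe2 lack. Of the listed starts, those of Lyl1 and Gfi1b were chosen because they carry the clearest calls. Zfpm1 was chosen for calls without a PU.1-type hexamer, and Gata1 for 1 low-scoring call beside such hexamers. The sequences are RefSeq's (GRCm38.p6, the build of mm10), 5′ to 3′ on the gene's own strand, with 250 bases before the start and 50 from it on. Capitals mark every match, on either strand, to the PU.1-type hexamers, which are GAGGAA with its shifted form AGGAAG (the pair can overlap by 5 letters), and to the GATA hexamers, which are AGATAA with its variant TGATAA, as well as AGATAG with its variant TGATAG. Lyl1 is at chr8:84701207-84701506 (+ strand), Gfi1b at chr2:28621933-28622232 (- strand), Zfpm1 at chr8:122281891-122282190 (+ strand) and Gata1 at chrX:7967861-7968160 (- strand).
Lyl1: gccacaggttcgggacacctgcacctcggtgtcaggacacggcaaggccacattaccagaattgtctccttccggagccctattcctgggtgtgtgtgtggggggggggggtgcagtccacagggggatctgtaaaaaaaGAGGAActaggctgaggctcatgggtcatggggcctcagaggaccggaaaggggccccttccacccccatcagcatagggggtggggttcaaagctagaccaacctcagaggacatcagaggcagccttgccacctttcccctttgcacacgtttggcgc
Gfi1b: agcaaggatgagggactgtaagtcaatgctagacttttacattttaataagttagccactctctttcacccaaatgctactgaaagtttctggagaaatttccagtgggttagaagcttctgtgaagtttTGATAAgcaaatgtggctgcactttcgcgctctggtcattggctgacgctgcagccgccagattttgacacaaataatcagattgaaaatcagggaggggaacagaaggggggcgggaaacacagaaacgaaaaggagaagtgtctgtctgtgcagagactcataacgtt
Zfpm1: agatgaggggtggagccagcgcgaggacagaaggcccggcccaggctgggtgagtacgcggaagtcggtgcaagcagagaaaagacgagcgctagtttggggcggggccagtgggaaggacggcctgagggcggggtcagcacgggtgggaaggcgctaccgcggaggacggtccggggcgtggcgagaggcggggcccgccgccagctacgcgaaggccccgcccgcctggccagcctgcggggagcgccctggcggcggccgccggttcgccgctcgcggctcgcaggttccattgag
Gata1: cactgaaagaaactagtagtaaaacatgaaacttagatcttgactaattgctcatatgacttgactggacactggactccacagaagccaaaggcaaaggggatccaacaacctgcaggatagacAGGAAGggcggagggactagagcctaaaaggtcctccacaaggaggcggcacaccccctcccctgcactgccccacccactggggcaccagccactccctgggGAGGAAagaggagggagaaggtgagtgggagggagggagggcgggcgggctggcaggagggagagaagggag

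Of the 9 genes, 5 had a site at Day 0, where 36.8% of all protein-coding genes had one. On Dox the counts were 9 at Day 4 (background 69.8%), 8 at Day 8 (background 61.7%) and 9 at Day 12 (background 77.1%). In the knockdown-titled libraries 7 genes had a site in Day 12- 4 (background 34.8%), 6 in Day 12- 8 (background 61.8%) and 8 in Day 12- 12 (background 78.9%). Thus most of these genes held a site in each list, as did most genes of the annotation in the long lists. The Klf1 calls in Day 12- 4 and Day 12- 12 were all nearer to another gene. The 9 genes were not longer than most, with a median length of 13.1 kb beside 17.2 kb for all genes.

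With every list reduced to its 8043 highest-scoring sites, 5 of the genes had a site at Day 0, where 36.8% of all genes had one. The counts were then 4 at Day 4 (background 25.5%), 4 at Day 8 (background 29.2%) and 5 at Day 12 (background 35.2%). They were 7 in Day 12- 4 (background 31.0%), 6 in Day 12- 8 (background 37.8%) and 6 in Day 12- 12 (background 31.0%). Among lists of equal length Lyl1, Zfpm1, Nfe2 and Gfi1b had a site at each of Days 4, 8 and 12, and Klf1 joined them at Day 12. The Klf1 sites counted here, at Day 12 and in the knockdown-titled libraries, all lay nearer to Gcdh or Dnase2a. At Day 12 the only site nearest to Klf1 itself scored 31.3 at place 15903, outside the reduced list. Lmo2 had one at Day 0 alone, Gata2 and Tal1 had none at Days 4, 8 or 12, and Gata1 had none in any library.

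**Figure D1:**
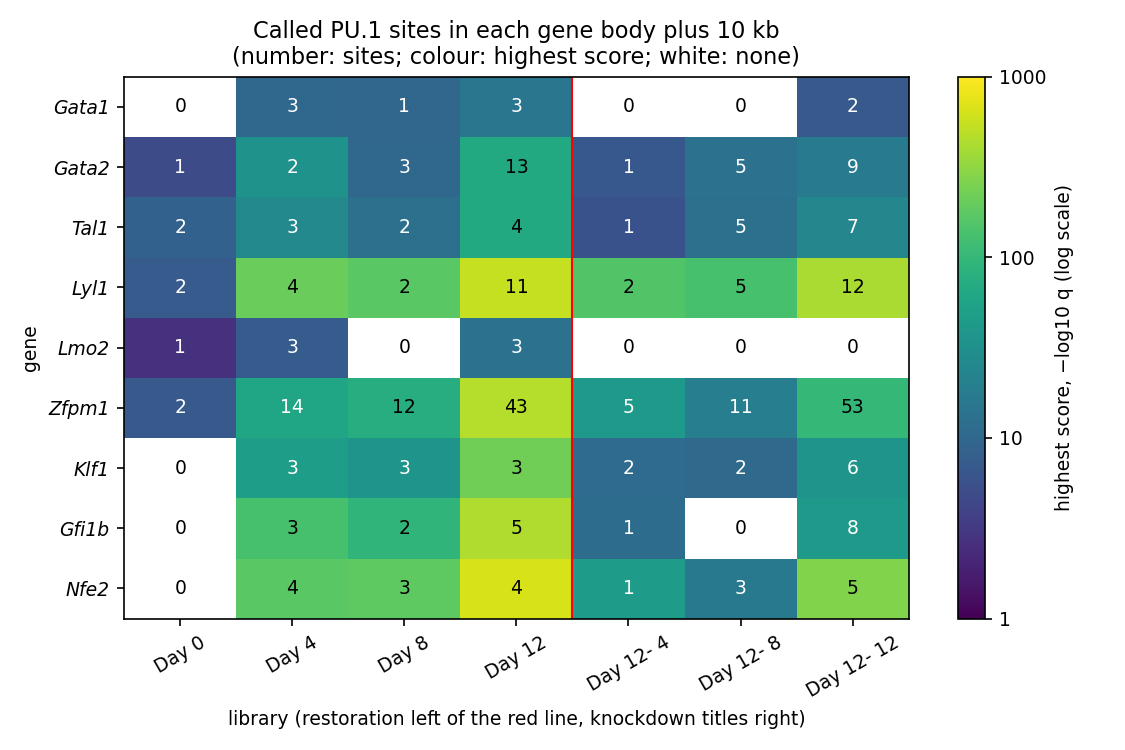
Number of called sites in the gene body plus 10 kb and the highest score of each of the 9 genes (down) in each of the 7 libraries (across), written as the number and shown as the colour on a log scale. Lyl1, Nfe2, Zfpm1 and Gfi1b hold the 4 highest scores at Day 12, between 444.7 and 664.5, while Gata1 and Lmo2 stay at 15.0 and 13.4.

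At Day 12 the highest scores of the 9 genes ran from 13.4 to 664.5. The highest sites of Nfe2 (664.5), Lyl1 (544.7), Zfpm1 (465.1) and Gfi1b (444.7) stood in the top 0.155%, 0.391%, 0.712% and 0.837% of the 86271 sites. Klf1 followed at 224.9 in the top 3.32%, while Tal1 (66.5) and Gata2 (66.4) stood near the top 11.0%. Gata1 (15.0) and Lmo2 (13.4) were in the top 30.3% and 32.7%. Read over genes, Nfe2 had a higher score than 99.2% of all protein-coding genes, a gene with no site counting as lowest, and Gata1 and Lmo2 a higher one than 39.6% and 38.4%. The median of the highest scores over the 9 genes was 224.9, beside 33.4 over all genes. That median is the Klf1 value, from a site nearer to Dnase2a. Counting for each gene only the sites nearest to it, the median was 66.5, beside 15.1 over all genes, a gene with no such site counting as 0.

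**Figure D2:**
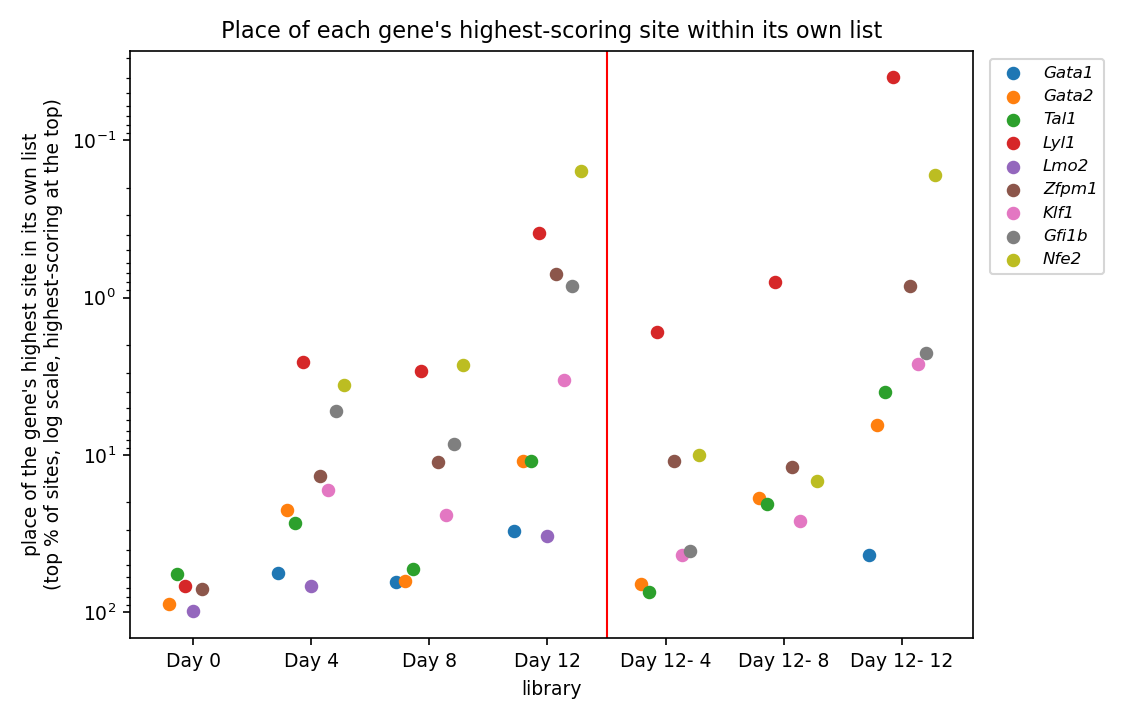
Place of each gene's highest site within its own list (top percent, log axis, the highest-scoring sites at one end) in each of the 7 libraries. At Day 12 Nfe2, Lyl1, Zfpm1 and Gfi1b lie within the top 1% and Gata1 and Lmo2 beyond the top 30%.

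The 310 summits at these genes formed 183 positions when summits within 100 bp were joined over the libraries. Most positions were called once: 116 in 1 library, 37 in 2, 13 in 3, 9 in 4, 3 in 5 and 5 in 6. The 8 positions called in at least 5 libraries were 4.37% of the 183, beside 3.02% of all such positions at protein-coding genes. No position was called in all 7 libraries, beside 0.473% of all positions. Of the 89 positions at Day 12, 15 (16.9%) were also called at Days 4 and 8, beside 19.1% of the Day 12 positions at all protein-coding genes. The shares of recurring positions were thus close to those at other genes. Of the 8, 2 were at Klf1, 2 at Zfpm1, 2 at Nfe2, 1 at Lyl1 and 1 at Gfi1b, and 4 of them lay nearer to a neighbouring gene. Leaving out Day 12- 12 lowered the 8 to 5.

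Gata1 (chrX:7959260-7976663), the master factor of red cell and platelet precursors, had low-placed sites. It had no call at Day 0, 3 sites at Day 4 (highest score 10.2), 1 at Day 8 (9.78) and 3 at Day 12 (15.0). Day 12- 4 and Day 12- 8 had none, and Day 12- 12 had 2, the higher at 6.86. No Gata1 site reached the top 30% of its list. Its 7 positions were called in at most 2 libraries each, one inside the gene at Days 4 and 12 (chrX:7963071) and one 2.80 kb below the lower-coordinate end at Days 4 and 8. The promoter shown above held 1 summit, at Day 12, 4 bp inside the start with a score of 4.85 (top 78.6%). That promoter has GAGGAA at -22 and AGGAAG at -125, counted in bp from the start to the first base of the match.

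Gata2 (chr6:88193891-88207032), the stem and progenitor cell GATA factor, had a call in every library. The numbers of sites were 1 at Day 0, 2 at Day 4, 3 at Day 8, 13 at Day 12, 1 in Day 12- 4, 5 in Day 12- 8 and 9 in Day 12- 12. Its highest scores in the same order were 4.83, 33.7, 10.0, 66.4, 6.70, 13.6 and 17.3. The sites seldom fell at the same place, since none of the 24 positions was called in more than 3 libraries and none at all of Days 4, 8 and 12. The Day 12 high score stood 323 bp before the first of 2 listed starts, and the Day 0 site 75 bp inside it, 171 bp from the nearest Day 12 summit. A position inside the gene (chr6:88205597-88205714) was called at Day 8 (10.0), Day 12 (55.9) and in Day 12- 12 (17.3). Neither listed promoter of Gata2 holds a PU.1-type or a GATA hexamer.

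Tal1 (chr4:115056426-115071755), the basic helix-loop-helix partner of the GATA complex, also had a call in every library. It had 2, 3, 2 and 4 sites at Days 0, 4, 8 and 12, with highest scores of 8.52, 26.2, 12.9 and 66.5. At Day 4 and at Day 8 only 1 site was nearest to Tal1 itself, and it gave the highest score there. Day 12- 4 had 1 site (5.74), Day 12- 8 had 5 (12.9) and Day 12- 12 had 7 (24.5). One position recurred through restoration, 3.94 kb past the end of the gene (chr4:115075696-115075744), at Day 4 (26.2), Day 8 (12.9), Day 12 (52.7) and in Day 12- 12 (24.5). Another, inside the gene (chr4:115068659-115068737), was called at Day 12 (9.30) and in the 3 knockdown-titled libraries (5.74 to 8.40). The highest Day 12 site was elsewhere, 586 bp inside the first start, beside a Day 12- 8 summit at 607 bp. The first promoter has GAGGAA at -146 and a reverse-strand AGATAA at -205, and the second has neither kind.

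Lyl1 (chr8:84701423-84704716), the close relative of Tal1 that also takes its place in GATA-2 complexes, had high-placed calls in every library except Day 0. Its highest scores were 7.25, 208.5, 172.3 and 544.7 at Days 0, 4, 8 and 12. They were 152.1 in Day 12- 4, 135.5 in Day 12- 8 and 418.9 in Day 12- 12. At Day 0 that site was in the top 67.9% of its list, and in the other 6 libraries in the top 2.91% or better, reaching the top 0.0398% (place 59 of 148415) in Day 12- 12. Lyl1 thus stood highest of all in a library whose label puts it after withdrawal. Rank depends on what else a list holds, and the part of list length was not tested.

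The start of Lyl1 held a summit in all 7 libraries, although not at a single position. Day 4 and Day 12- 12 had theirs at -69 and -66, and Day 0 at -198. Day 12- 8, Day 12- 4, Day 8 and Day 12 had theirs at 242, 249, 263 and 274 bp inside the gene. Joined within 500 bp, these summits made 1 position (chr8:84701259-84701731) called in all 7 libraries, and no other position of the 9 genes was so called. In the Lyl1 sequence above the only PU.1-type hexamer, GAGGAA at -110, lies 38.5 bp from the Day 4 summit and 41.5 bp from the Day 12- 12 summit. The summits inside the gene lie 349.5 to 381.5 bp from it, outside the printed sequence.

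A second Lyl1 position was 1.41 kb before the gene (chr8:84699971-84700018), nearer to Trmt1, which encodes a tRNA methyltransferase. It was called at Day 0 (5.27) and on Dox (208.5, 172.3 and 280.0 at Days 4, 8 and 12), the 1 position at the 9 genes called in all 4 restoration libraries. Day 12- 4 (15.6) and Day 12- 12 (204.4) had it too, and Day 12- 8 had no call there. At Days 4 and 8 this position scored above the start of Lyl1, where the scores were 155.4 and 116.1, while at Day 12 and in the knockdown-titled libraries the start scored higher. Of the 23 positions in the window of this short gene, 17 lay nearer to another gene.

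Lmo2 (chr2:103957903-103981878), the LIM-only bridge of the GATA complex, had the fewest libraries with a call within 10 kb. It had 1 site at Day 0 (2.65, top 98.5%), 3 at Day 4 (highest 7.42), none at Day 8 and 3 at Day 12 (highest 13.4). None of the 3 knockdown-titled libraries had a site within 10 kb. With windows of 25 kb all 9 genes, Lmo2 included, had a site at Day 8 and in Day 12- 12. No 2 libraries shared an Lmo2 position, its 7 positions each being called once. Of the 8936 protein-coding genes at least as long as Lmo2, 74.1% had a Day 8 site, 39.7% one in Day 12- 4, 72.5% one in Day 12- 8 and 88.9% one in Day 12- 12. Of the same genes 47.7%, 82.4% and 87.9% had a site at Days 0, 4 and 12. Within 10 kb the Lmo2 pattern of calls at Days 0, 4 and 12 alone was that of 10 genes in all (0.0457%). That pattern did not hold for Lmo2 with the 25 kb window.

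Zfpm1 (chr8:122281856-122337862), which encodes FOG-1, was the longest of the genes at 56.0 kb and held the most sites. It had 2, 14, 12 and 43 at Days 0, 4, 8 and 12, and 5, 11 and 53 in Day 12- 4, Day 12- 8 and Day 12- 12. Per kb of its window Zfpm1 had 0.566 sites at Day 12, more than 99.6% of all genes, and 0.697 in Day 12- 12, more than 99.7%. At Day 0, in Day 12- 4 and in Day 12- 8 it was not first of the 9 genes per kb, with 0.0263, 0.0658 and 0.145, where Lyl1 had 0.0859, 0.0859 and 0.215. Its highest scores were 6.90, 58.0, 73.9 and 465.1 at Days 0, 4, 8 and 12 and 41.8, 19.2 and 99.0 in the 3 knockdown-titled libraries. The 2 sites at Day 0 lay near the far end of the gene, 1146 and 1848 bp from any Day 12 summit, so that none of the positions called at Days 4, 8 and 12 had a Day 0 call.

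Of the 82 Zfpm1 positions 6 lay nearer to another gene, 7 were called at all of Days 4, 8 and 12, and 2 in all libraries but Day 0. The first of these, 1423 bp inside the start (chr8:122283545-122283583), scored 58.0, 55.5 and 341.5 at Days 4, 8 and 12 and 21.2, 9.08 and 64.3 in Day 12- 4, Day 12- 8 and Day 12- 12. The other was deep in the gene (chr8:122315066-122315158), at 57.7, 73.9 and 465.1 and then 41.8, 19.2 and 99.0. It gave the highest Zfpm1 score in 5 of the 6 libraries. At Day 4 the first of the pair was higher, by 58.0 to 57.7. The start itself was called at Day 8 (38.8), Day 12 (73.2), Day 12- 8 (16.6) and Day 12- 12 (6.61), with summits between -175 and -102. The Zfpm1 sequence above, which contains them, has no PU.1-type and no GATA hexamer, and 4 matches to the shorter ETS core GGAA.

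**Figure D3:**
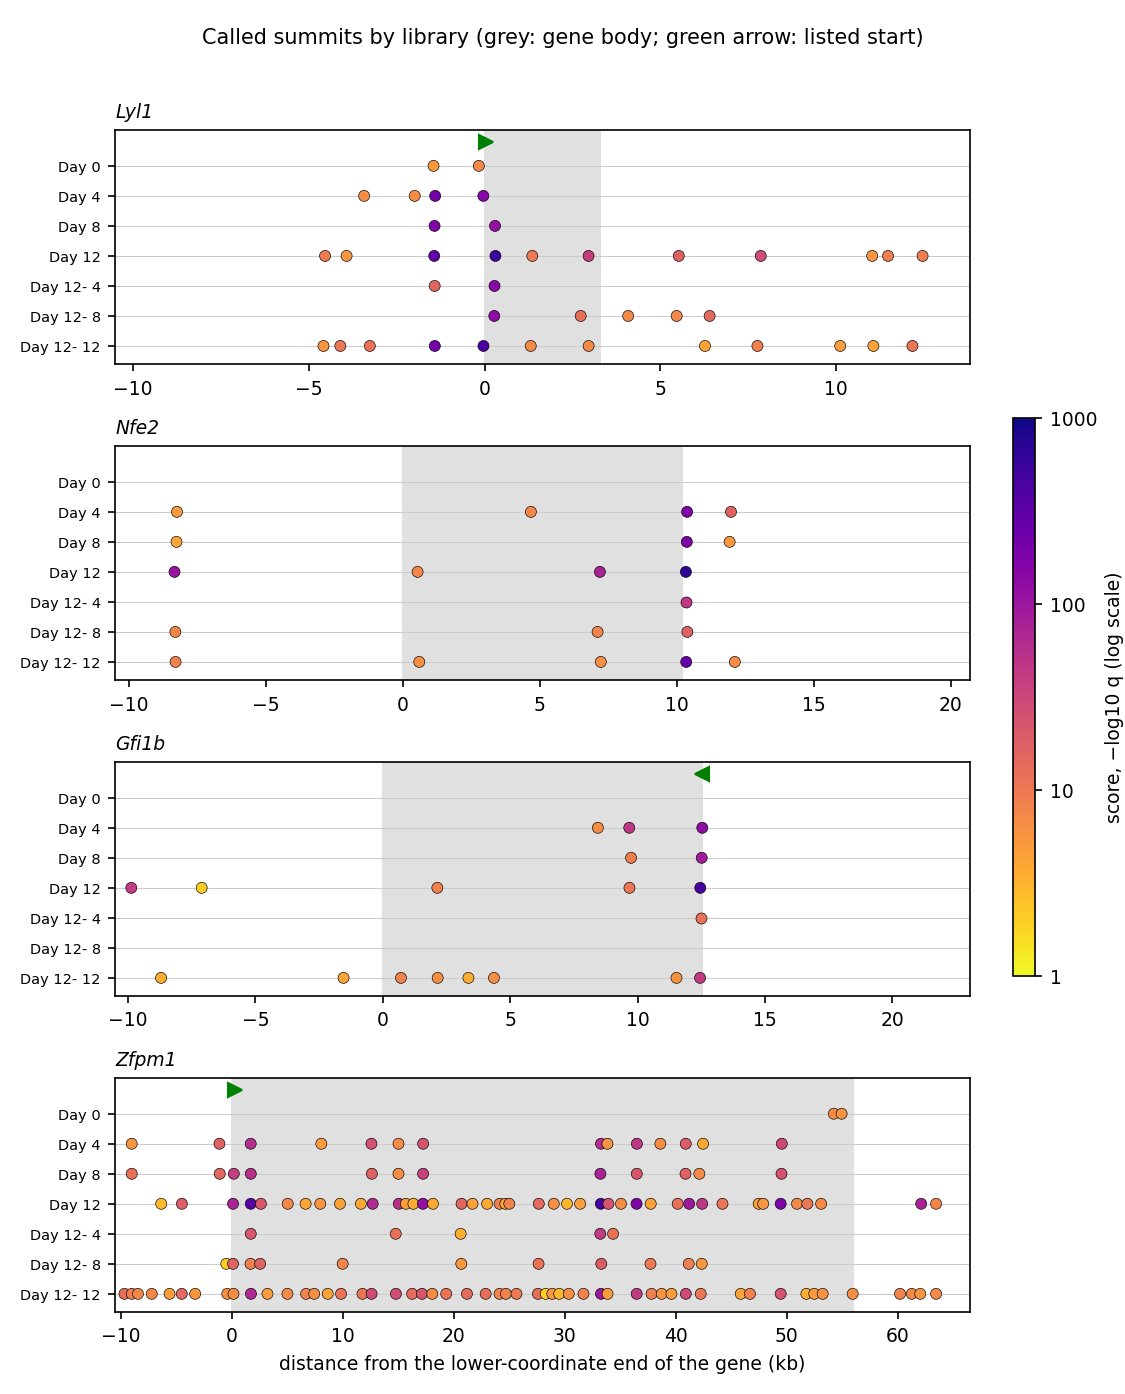
Called summits at Lyl1, Nfe2, Gfi1b and Zfpm1, 1 row per library, by distance in kb from the lower-coordinate end of the gene (bar), coloured by score on a log scale, with the gene body in grey and listed starts as green arrows. Columns of points that line up over the libraries stand at the start of Gfi1b, 139 bp past the upper end of Nfe2, at and before Lyl1, and at 2 places inside Zfpm1, and Day 0 has no point in 4 of these columns.

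Klf1 (chr8:84901982-84905291), the erythroid Kruppel-like factor, had high scores that mostly lay nearer to its neighbours. It had no site at Day 0, 3 each at Days 4, 8 and 12 (highest 46.8, 35.2 and 224.9), and 2, 2 and 6 in Day 12- 4, Day 12- 8 and Day 12- 12 (11.2, 10.9 and 36.0). Of its 8 positions 6 were nearer to another gene, among them both that were called in at least 5 libraries. One of these was 3.35 kb past the end of Klf1, by Dnase2a, which encodes a lysosomal nuclease (chr8:84908642-84908716), and was called in every library but Day 0. The other was 8.11 kb before the gene, inside Gcdh, a mitochondrial dehydrogenase gene (chr8:84893717-84893873), at 46.8, 35.2 and 130.8 at Days 4, 8 and 12. Counting sites nearest to Klf1 alone, its highest scores were 3.57, 5.55 and 31.3 at Days 4, 8 and 12 and 8.00 in Day 12- 8, with no such site in Day 12- 4 or Day 12- 12. The site inside the gene (chr8:84903221-84903284) was shared by Day 8, Day 12 and Day 12- 8. The Klf1 promoter has a reverse-strand TGATAA at -80, no PU.1-type hexamer and no summit inside.

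Nfe2 (chr15:103248212-103258403), the large subunit of the NF-E2 factor of platelet and globin genes, carried the highest Day 12 score of the 9 genes. It had no site at Day 0 and 4, 3 and 4 sites at Days 4, 8 and 12, then 1, 3 and 5 in Day 12- 4, Day 12- 8 and Day 12- 12. A single position, 139 bp past the upper-coordinate end (chr15:103258542-103258596), gave the top score in all 6 libraries. Nfe2 had no listed start here, so that end is named by coordinate alone and may be its start. Its scores were 171.5, 178.7 and 664.5 at Days 4, 8 and 12 (place 134 of 86271 in the last), and 45.1, 16.5 and 269.9 in Day 12- 4, Day 12- 8 and Day 12- 12 (place 248 of 148415). That position was thus in the top 3.58% of each restoration list after Day 0 and in the top 0.167% of Day 12- 12, while it was in the top 9.96% and 14.7% of the other 2. A second recurring position, 8.25 kb below the lower end and by Cbx5, a heterochromatin protein gene, scored 106.5 at Day 12 and between 4.08 and 8.23 in 4 other libraries.

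Gfi1b (chr2:28609450-28621982), a zinc-finger repressor of red cell and platelet precursors, carried its recurring calls on the start itself. It had no site at Day 0 and 3, 2 and 5 at Days 4, 8 and 12, and 1, 0 and 8 in Day 12- 4, Day 12- 8 and Day 12- 12. The position at the start (chr2:28621901-28621987) scored 132.5, 91.1 and 444.7 at Days 4, 8 and 12, and 11.6 in Day 12- 4 and 42.2 in Day 12- 12. Its summits stood at -5, 17 and 74 bp from the start at Days 4, 8 and 12 and at 27 and 81 bp in Day 12- 4 and Day 12- 12. The Gfi1b sequence above has no PU.1-type hexamer and holds TGATAA at -120. It has the ETS core GGAA, found in 96.0% of all promoters, at -22 and -5 and on the reverse strand at -151. The core at -5 lies 1.5, 20.5 and 77.5 bp from the summits of Days 4, 8 and 12. From those of Day 12- 4 and Day 12- 12 it lies 30.5 and 84.5 bp away. Gfi1b was the only 1 of the 4 high-scoring genes without a call in Day 12- 8.

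**Figure D4:**
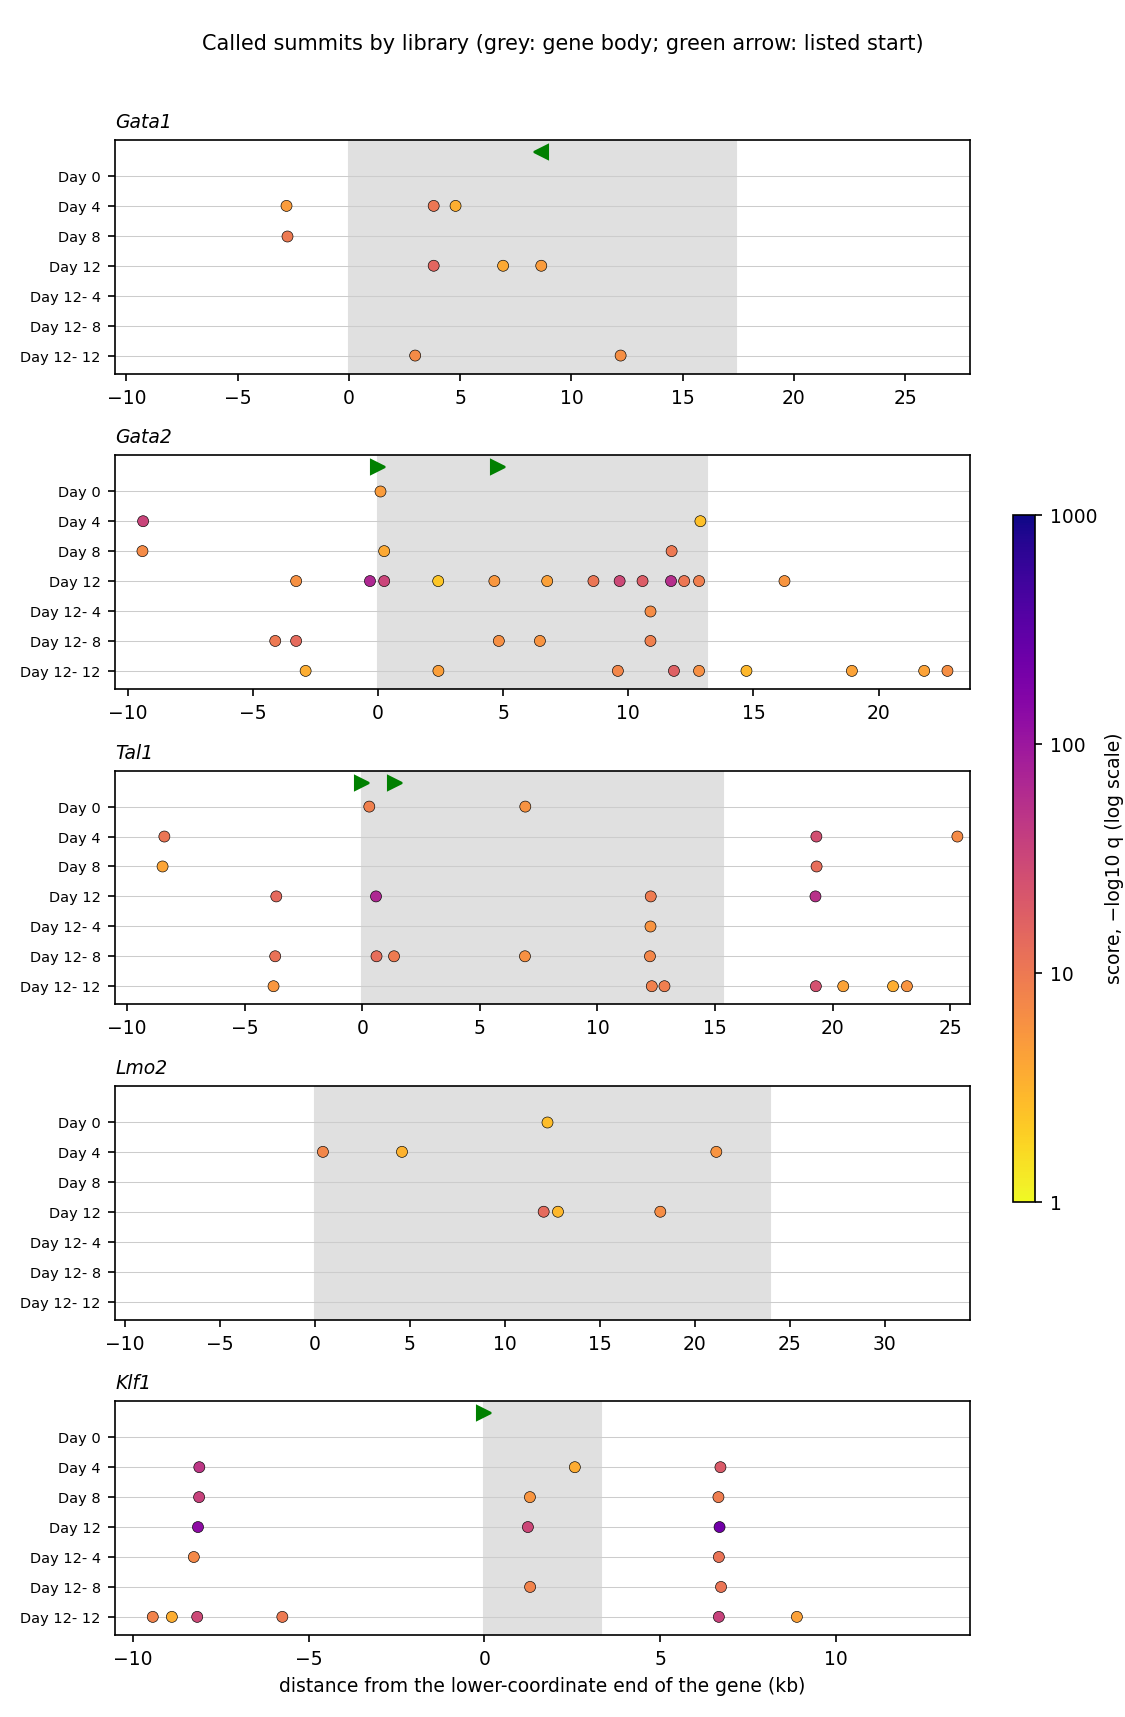
Called summits at Gata1, Gata2, Tal1, Lmo2 and Klf1, 1 row per library, by distance in kb from the lower-coordinate end of the gene (bar), coloured by score on a log scale, with the gene body in grey and listed starts as green arrows. Points of different libraries seldom line up at Gata1, Gata2 and Lmo2, and at Klf1 points line up at 1 place inside the gene and at 2 outside it.

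At Day 0 the sites were few and low in their list. The 8 sites at Gata2, Tal1, Lmo2, Lyl1 and Zfpm1 scored between 2.65 and 8.52, all below the median of their own list (9.48). Gata1, Klf1, Nfe2 and Gfi1b had no site at Day 0 and at least 1 at Day 12, 4 of the 9 genes beside 42.1% of all genes. Of the 8 Day 0 sites 1 lay within 100 bp of a Day 12 summit, the one before Lyl1 at 20 bp, and a Tal1 site inside the gene lay 14 bp from a Day 12- 8 summit. Of the 15 positions called at Days 4, 8 and 12, 14 had no Day 0 call, beside 90.0% of all such positions at protein-coding genes. The Day 12- 12 list held 13 of the 15 (background 72.3%), Day 12- 4 held 7 (background 37.5%) and Day 12- 8 held 5 (background 18.2%). Of the 183 positions, 67 (36.6%) were called in knockdown-titled libraries and in no restoration library, beside 46.0% of all positions. In Day 12- 12 alone, the longest list, there were 55 (30.1%), beside 40.6% of all positions, and 34 (18.6%) were at Day 12 alone, beside 14.5%.

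By their 7-library pattern of site or no site, Gata2, Tal1, Lyl1 and Zfpm1 shared calls in all 7 with 3838 protein-coding genes (17.5%), Spi1, Runx1 and Cbfa2t3 among them. Klf1 and Nfe2, with calls in all but Day 0, shared theirs with 2559 genes (11.7%), including Tfr2, Vwf and Gfi1. The Gfi1b pattern was that of 595 genes (2.72%), among them Rhd, Plek and Cebpe. Gata1 had the pattern of 1108 genes (5.06%), of which Tal2, Lmo3 and Aqp1 were on the gene lists described next.

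Over the 9 listed promoters of the 7 genes with an entry (all but Lmo2 and Nfe2), 6 held a summit in at least 1 library, beside 32.6% of all listed promoters. A PU.1-type hexamer was present in 3 of the 9, a GATA hexamer in 3 and neither in 4. Among all 32851 RefSeq promoters of the same length, 46.0% held a PU.1-type hexamer (GAGGAA 28.3%, AGGAAG 35.4%), 29.8% a GATA hexamer and 14.0% both. The core GGAA was in 96.0% of them, the KLF-type CACCC in 57.5% and the E-box CANNTG, which reads the same on both strands, in 72.3%. Of the promoters with a PU.1-type hexamer only that of Tal1 also had a GATA hexamer. These are matches of letters in short windows and describe no occupied site.

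Other genes of the lineage were read in the same way, from 5 lists of textbook roles, also chosen with earlier results known. Their scores are those of the highest site anywhere in the window, which can lie nearer to a neighbouring gene. Of 16 partners of the GATA and TAL1 complexes, 13, 15, 14 and 16 had a site at Days 0, 4, 8 and 12. The background over all protein-coding genes was 36.8%, 69.8%, 61.7% and 77.1%. In Day 12- 4, Day 12- 8 and Day 12- 12 the counts were 9, 15 and 15, where the background was 34.8%, 61.8% and 78.9%. None of the 5 lists was matched to the background for gene length. The partner Cbfa2t3, a corepressor of the TAL1 complex, had the highest score of the whole Day 12 list (904.2) and calls in all 7 libraries, from 30.1 at Day 0. Ssbp4 (593.8), the chromatin remodeller Chd4 (572.4) and Runx1 (558.1) came next at Day 12, and of these Chd4 had no call at Day 0. These 4 scored above Lyl1, and no partner but Cbfa2t3 scored above Nfe2.

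Among 17 family relatives of the 9 factors, 11, 15, 11 and 14 had a site at Days 0, 4, 8 and 12. These shares of 64.7%, 88.2%, 64.7% and 82.4% stood beside 36.8%, 69.8%, 61.7% and 77.1% of all protein-coding genes. In the knockdown-titled libraries 4, 13 and 17 had one, or 23.5%, 76.5% and 100%, beside 34.8%, 61.8% and 78.9%. Their highest Day 12 scores were 157.2 at Klf2, 156.0 at Nfe2l2, 146.2 at Gfi1 and 128.5 at Nfe2l1. These were below the scores of Nfe2 and Gfi1b. They were also below the 224.9 by Dnase2a in the Klf1 window, but above the 31.3 of the highest site nearest to Klf1. Gfi1, the myeloid sister of Gfi1b, scored 25.8, 15.9 and 146.2 at Days 4, 8 and 12, where Gfi1b had 132.5, 91.1 and 444.7. Klf3 had a call in all 7 libraries.

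Erythroid effector genes, which here are the erythropoietin receptor, heme and iron genes and genes of the red cell membrane and cytoplasm, included genes with high and genes with no calls. Of 28 found, 9, 21, 20 and 21 had a site at Days 0, 4, 8 and 12. These shares of 32.1%, 75.0%, 71.4% and 75.0% stood beside 36.8%, 69.8%, 61.7% and 77.1% of all protein-coding genes. In the knockdown-titled libraries 6, 16 and 21 had one, or 21.4%, 57.1% and 75.0%, beside 34.8%, 61.8% and 78.9%. The highest at Day 12 were Tfr2 (387.0), Epb41 (320.4), Rhd (186.7) and Tfrc (174.8), and Ank1, Epb41, Ermap and Icam4 had a site in all 7. Of 21 megakaryocyte effectors 6, 17, 12 and 17 had a site at Days 0, 4, 8 and 12, or 28.6%, 81.0%, 57.1% and 81.0%. In the knockdown-titled libraries 9, 13 and 17 had one, or 42.9%, 61.9% and 81.0%. The backgrounds are those just given. Vwf (599.8), Nbeal2 (559.2), Itgb3 (356.7) and Gp9 (250.9), genes of platelet granules and receptors, led that list at Day 12, and Itga2b and Nbeal2 had a site in all 7.

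Of 9 myeloid factors, set beside the erythroid ones, 7, 9, 9 and 9 had a site at Days 0, 4, 8 and 12. The background over all protein-coding genes was 36.8%, 69.8%, 61.7% and 77.1%. In the knockdown-titled libraries 5, 8 and 8 had one, where the background was 34.8%, 61.8% and 78.9%. Spi1, the gene of PU.1 itself, scored 673.8 at Day 12, next to 664.5 for Nfe2, and it had a call at Day 0 of 53.4, where Nfe2 had none. Egr1 (566.8), Cebpe (407.6) and Cebpb (219.0) followed. The highest scores of Lyl1, Zfpm1 and Gfi1b at Day 12 lay between those of Egr1 and Cebpe.

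**Figure D5:**
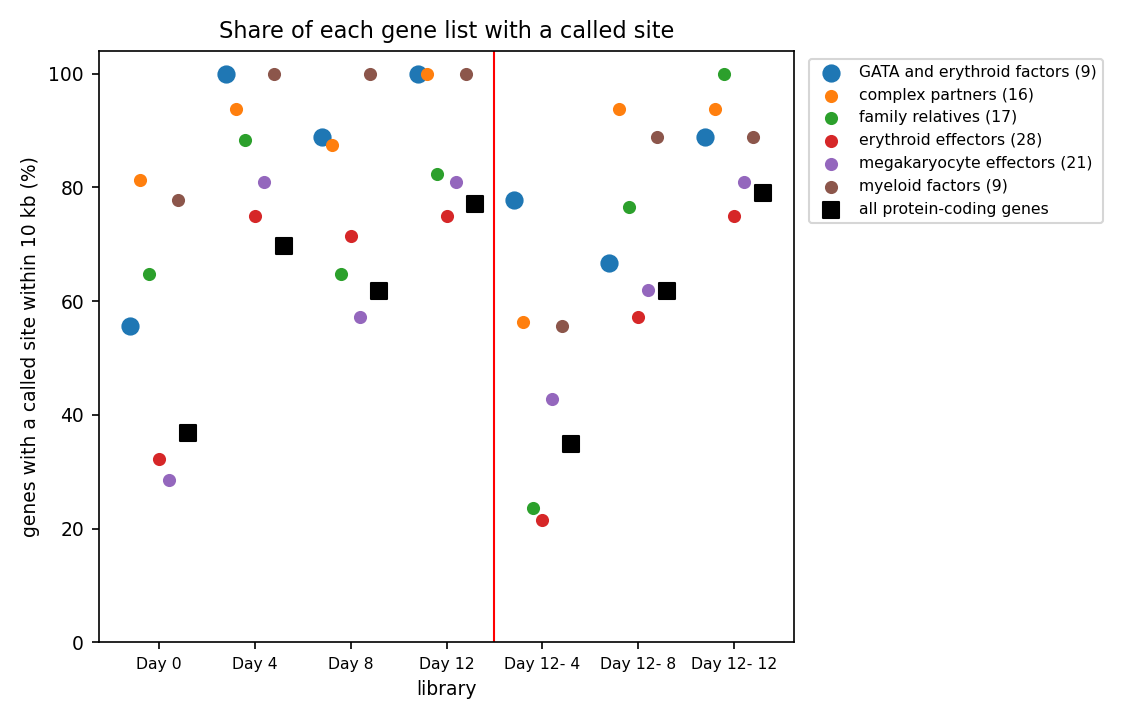
Percent of the genes of each list with a called site in the gene body plus 10 kb, by library, with all 21887 protein-coding genes as black squares and a red line between the restoration and the knockdown-titled libraries. The 9 factor genes lie between 55.6% at Day 0 and 100% at Days 4 and 12, while the squares range from 34.8% to 78.9%.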

How the data were processed

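ChIP-seq for PU.1 was available for 7 libraries, 1 per time point, as lists of 1 bp peak summits. MACS2 and mm10 are named in the submitters' processing notes. For the aligner, control, versions, peak widths and read depth, the entry is: not given in the sources used here. The deposited score was read as the −log10 q-value because its lowest value in each list is 1.30 or just above, the −log10 of 0.05, and no header names it.

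The genes and lists (complex partners, family relatives, erythroid and megakaryocyte effectors, myeloid factors) were chosen with earlier results of these data known. Of 100 gene entries, 99 matched RefSeq's table (GRCm38.p6), whose spans served as gene bodies. A window was the body plus 10 kb. Summits within 100 bp were joined by single linkage over the 7 lists. Lists were also reduced to the 8043 highest scores. Promoters were searched for motifs on both strands. Sites away from the listed promoters have no sequence here. Named were the 9 genes, the 4 highest at Day 12 and up to 4 called in all 7 libraries of each other list, and positions in at least 5 libraries, within 1 kb of a gene end or highest at a restoration time. A few further positions and pattern examples were chosen after their values were seen. No test was run. Alternatives were other windows, score minimums, joining distances and list lengths. Scripts used Python 3.11.15, pandas 2.3.3 and numpy 2.4.6, and were tested on simulated summits.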

Additional observations from a re-analysis of the deposited data

How the results depend on the processing

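Of 58 alternatives, 43 stayed within 1.5 times the value given and 15 did not. Most of these followed from keeping fewer sites. With lists of equal length the genes with a site numbered 4 at Day 4, 4 at Day 8 and 5 at Day 12. At a score of at least 10 or at least 20 the Day 0 count was 0, and at 20 it was 5 at Day 8, 3 in Day 12- 4 and 1 in Day 12- 8. With the gene body alone the Day 8 count was 5. Positions called at Day 12 and not at Day 0 numbered 88, and 12 with equal lists or 31 at a score of at least 20. Positions called in every library went from 0 to 1 when joined within 500 bp (the Lyl1 start) or over the 4 restoration libraries alone. Positions in at least 5 libraries numbered 8, and 6, 7 and 5 when Day 12- 4, Day 12- 8 or Day 12- 12 was left out, a choice added after seeing the data. Counting only sites nearest to the gene itself left 9 of 9 at Day 12. The same count was 5, 9 and 8 at Days 0, 4 and 8. It was 6, 6 and 7 in Day 12- 4, Day 12- 8 and Day 12- 12, where all sites gave 7, 6 and 8. With those nearest sites alone, also a later choice, the median of the highest Day 12 scores was 66.5 in place of 224.9. With 1 library per time point no spread between replicates is known, and the lengths of the lists limit every count. No paired analysis was possible because no group has more than 1 library and no result comes from a test.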

Other observations

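The share of promoters with a PU.1-type hexamer among those holding a summit differed between lists. It was 45.9% of 1850 at Day 0 and 44.4% of 4064 in Day 12- 8, beside 46.0% of all promoters. It was 65.3% of 3378 at Day 4, 58.7% of 4023 at Day 8, 50.8% of 6921 at Day 12, 61.7% of 1871 in Day 12- 4 and 54.9% of 4917 in Day 12- 12. Lyl1 and Gata1 are in this count at the times when their promoters held a summit, and Gfi1b and Zfpm1 are among the promoters with a summit and no such hexamer. No call in any of the 7 libraries was found at 4 of 28 erythroid effectors (Alas2, Rhag, Kel and Car1) and 2 of 21 megakaryocyte effectors (Clec1b and Mmrn1), named after their values were seen, beside 13.4% of all protein-coding genes.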
